A study of Anser cygnoides with 6 samples.

Results

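The EGLN prolyl hydroxylases (also called PHD enzymes) were described in the livers of 6 lion-head geese, 3 high-intake-fed and 3 normally fed. All gene models whose description named an EGLN homolog or a hypoxia-inducible factor prolyl hydroxylase were taken, which gave 3 of the 21009 models of the mRNA table. These are 1 model of EGLN3 and 2 models of EGLN1. The family was selected on the fall of EGLN3 between these same groups of birds, so the values of EGLN3 between the groups are a description without a test, and the EGLN1 models were tested.

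EGLN enzymes add a hydroxyl group to prolines of the alpha subunits of hypoxia-inducible factors (HIF), using oxygen, 2-oxoglutarate, iron and ascorbate. The hydroxylated subunit is bound by VHL, the recognition subunit of a ubiquitin ligase, and is degraded, and when oxygen is short the subunit stays, pairs with ARNT and turns on its target genes. In mammals EGLN1 (PHD2) sets HIF levels in most tissues, EGLN3 (PHD3) is itself a HIF target gene, and in mouse liver the loss of EGLN3 raises HIF2A (EPAS1) and insulin signalling. The 3 mammalian enzymes EGLN1, EGLN2 and EGLN3 share the catalytic oxygenase fold, and EGLN1 also carries a MYND zinc finger at its start, which binds cochaperones of HSP90.

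The feeding ran for 38 days from an age of 120 days in both groups. The normally fed birds took feed at will, while the high-intake-fed birds received a diet with boiled rice by force-feeding. The study's methods also state that the diet was the same for all birds and that daily feeding times differed. Every bird had feed withheld overnight before sacrifice, each group lived in an isolator of its own, and the sources used here do not give the sex of the 6 birds. Feeding group and isolator therefore cannot be told apart. Each library came from the liver of 1 bird, numbered by its replicate label, and the libraries held 14154910 to 16993373 counts. Counts are given as CPM, the count relative to a library size that was adjusted with TMM factors (trimmed mean of M values). Of the 12914 models that passed the filter on low counts, edgeR's quasi-likelihood test placed 0.643% higher and 0.829% lower in high-intake-fed geese at an adjusted p under 0.05 (83 and 107 models). "Rose" and "fell" are used of tested models past that threshold. The CPM ranges of the groups did not overlap, with the high-intake-fed birds above, in 11.1% of tested models, and with them below in 13.3%.

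The listed EGLN3 model, maker-Hic_scaffold_6-augustus-gene-205.2, lies on the plus strand of scaffold 6 from 20489968 to 20494353, in the coordinates of the deposited table. Its coding length was 432 bases (144 codons), and its description holds the oxygenase domain of prolyl 4-hydroxylases (p4hc) and no MYND finger. One EGLN1 model (maker-Hic_scaffold_3-augustus-gene-845.4, scaffold 3, 84468891 to 84474511, minus strand) also holds the p4hc domain and no MYND finger, with a coding length of 399 bases, and is called the catalytic piece here. The other EGLN1 model (maker-Hic_scaffold_3-augustus-gene-845.5, scaffold 3, 84495756 to 84500223, minus strand) holds the MYND finger and no p4hc domain, with a coding length of 981 bases, and is called the MYND piece. The pieces are next to each other, 21244 bases apart, with no model between them and the MYND piece upstream on their strand. The RefSeq annotation of the Taihu goose has 1 gene with the symbol EGLN1 between the same neighbours, so both pieces may belong to 1 gene, and they are not counted as independent measurements. That annotation has 1 EGLN3 gene and 0 genes with the symbol EGLN2, and no description in the table named an EGLN2. No other model of the table overlapped any of the 3.

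EGLN3 counts were far lower in every high-intake-fed liver than in any normally fed one. EGLN3 held 617, 853 and 755 counts in normally fed birds 1, 2 and 3, and 29, 52 and 43 counts in high-intake-fed birds 1, 2 and 3. In CPM these were 41.0, 50.4 and 48.7 against 2.02, 3.30 and 2.61. The groups did not overlap, and the lowest normally fed bird was at 12.4 times the CPM of the highest high-intake-fed bird. The means were 46.7 ± 5.0 and 2.64 ± 0.643 CPM (SD of 3 birds each), a 17.7-fold ratio, and the fitted log2 fold change was -4.14. In these 12914 models 8 had a larger fitted fall (EGLN3 ranked 9). Within each group the birds lay close together, with a coefficient of variation of 10.7% in the normally fed group and 24.3% in the high-intake-fed geese. High-intake-fed bird 1 was the lowest of its group and bird 2 the highest. In whole-liver libraries, fewer cells that express EGLN3 and less EGLN3 mRNA per cell cannot be told apart.

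The deposited FPKM (fragments per kilobase and library size, the authors' values) gave a ratio of like size for EGLN3. It was 11.7, 19.95 and 15.9 in normally fed birds 1, 2 and 3, and 0.645, 1.66 and 0.467 in high-intake-fed birds 1, 2 and 3. The groups again did not overlap, and the ratio of the means was 17.2. High-intake-fed bird 3 was the lowest of its group by FPKM and the middle bird by CPM. With each bird left out in turn, the fitted log2 fold change of EGLN3 lay between -4.33 and -3.98.

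The EGLN1 catalytic piece showed no change past the threshold. It held 272, 361 and 347 counts in normally fed birds 1, 2 and 3 and 293, 297 and 205 counts in high-intake-fed birds 1, 2 and 3. In CPM these were 18.1, 21.3 and 22.4 against 20.4, 18.9 and 12.5. The groups overlapped, since high-intake-fed birds 1 and 2 lay within the normally fed range and bird 3 below it. The means were 20.6 ± 2.24 and 17.2 ± 4.2 CPM (SD of 3 birds each), with an edgeR log2 fold change of -0.26 and an adjusted p = 0.629. The log2 difference of the CPM was -0.28 with a standard error of 0.24 and a 95% interval of -0.95 to 0.38, which spans both falls and rises. By FPKM the catalytic piece was at 14.1, 17.8 and 19.9 in the normally fed group and at 12.2, 15.3 and 11.5 in the high-intake-fed birds.

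The EGLN1 MYND piece varied widely among the high-intake-fed birds and did not pass the threshold. It held 132, 136 and 145 counts in normally fed birds 1, 2 and 3 and 68, 185 and 212 counts in high-intake-fed birds 1, 2 and 3. In CPM these were 8.77, 8.03 and 9.34 against 4.73, 11.7 and 12.9. High-intake-fed bird 1 lay below all normally fed birds and birds 2 and 3 above them all. The means were 8.72 ± 0.657 and 9.79 ± 4.42 CPM (SD of 3 birds each), with an edgeR log2 fold change of 0.17 and an adjusted p = 0.861. The coefficient of variation was 7.53% in the normally fed group and 45.2% in the high-intake-fed geese. The log2 difference of the CPM was 0.04 with a standard error of 0.47 and a 95% interval of -1.25 to 1.33. Without high-intake-fed bird 3 the sign of the edgeR log2 fold change turned (-0.08), and without bird 1 it was 0.50.

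**Figure D1:**
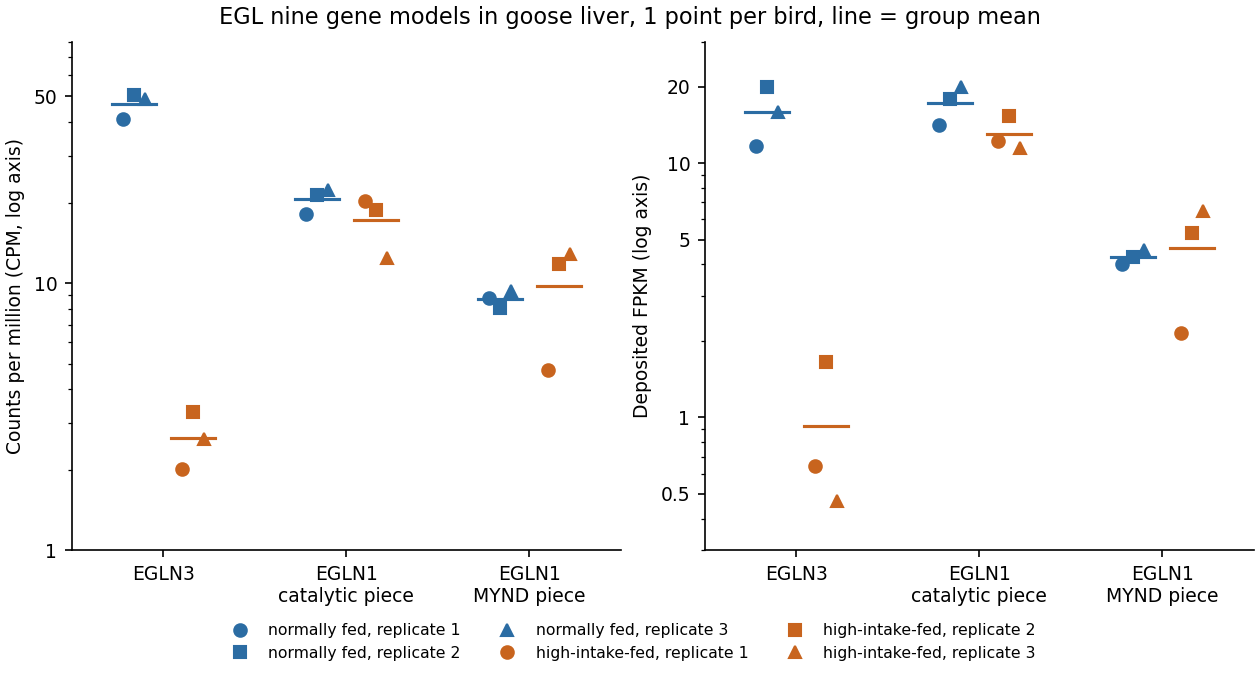
The 3 EGLN gene models in each bird, as CPM (left) and as deposited FPKM (right), both on log axes, with blue points for normally fed and orange points for high-intake-fed geese and a line at each group mean. EGLN3 separates the groups on both scales (41.0 to 50.4 against 2.02 to 3.30 CPM), the catalytic piece of EGLN1 overlaps, and the MYND piece is spread on both sides of the normally fed birds in the high-intake-fed group.

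Per length, EGLN3 was the most abundant of the 3 models in normally fed livers by counts and the least abundant in high-intake-fed livers. This ranking rests on each model's coding length, and whether the EGLN3 model holds its whole coding sequence was not tested. Counts per kilobase of coding length were 1428, 1975 and 1748 for EGLN3 in normally fed birds 1, 2 and 3, and 682, 905 and 870 for the catalytic piece. In high-intake-fed birds 1, 2 and 3 they were 67.1, 120.4 and 99.5 for EGLN3 and 734, 744 and 514 for the catalytic piece. The MYND piece was at 135, 139 and 148 in the normally fed group and at 69.3, 189 and 216 in the high-intake-fed birds. EGLN3 thus stood below both EGLN1 pieces in every high-intake-fed bird, although in bird 1 EGLN3 and the MYND piece were close.

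As a share of the family's counts per kilobase, EGLN3 made up 63.6%, 65.4% and 63.2% in normally fed birds 1, 2 and 3. In high-intake-fed birds 1, 2 and 3 its share was 7.71%, 11.4% and 12%. The family's total adds both EGLN1 pieces as separate models. If both belong to 1 gene, that gene enters the total once per piece, and shares per gene would differ. The mean share was 64.1 ± 1.18% in the normally fed group and 10.4 ± 2.33% in the high-intake-fed geese (SD of 3 birds each), and the catalytic piece made up most of the remainder, at 30.6 ± 0.762% and 72.3 ± 11.3%. The ratio of EGLN3 to the catalytic piece within a library does not depend on library scaling. It was 2.10, 2.18 and 2.01 in the normally fed group and 0.0914, 0.162 and 0.194 in the high-intake-fed birds 1, 2 and 3.

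The order of EGLN3 and the catalytic piece in normally fed livers depended on the scale. By FPKM the ratio of EGLN3 to the catalytic piece was 0.830, 1.12 and 0.797 in normally fed birds 1, 2 and 3, so that EGLN3 was higher in bird 2 alone. CPM per kilobase of coding length was between 4.61 and 12.95 times the FPKM for EGLN3, between 2.72 and 4.19 times for the catalytic piece and between 1.92 and 2.25 times for the MYND piece. For EGLN3 the ratio also differed between birds of 1 group, at 4.61 in high-intake-fed bird 2 and 12.95 in bird 3. The methods name FPKM as the way read counts were normalised and do not give the transcript lengths behind it. Why these ratios differ between models and between birds was not tested. In high-intake-fed livers the catalytic piece was higher than EGLN3 on both scales, by 10.9, 6.18 and 5.16 times in counts per kilobase and by 18.9, 9.22 and 24.6 times in FPKM.

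**Figure D2:**
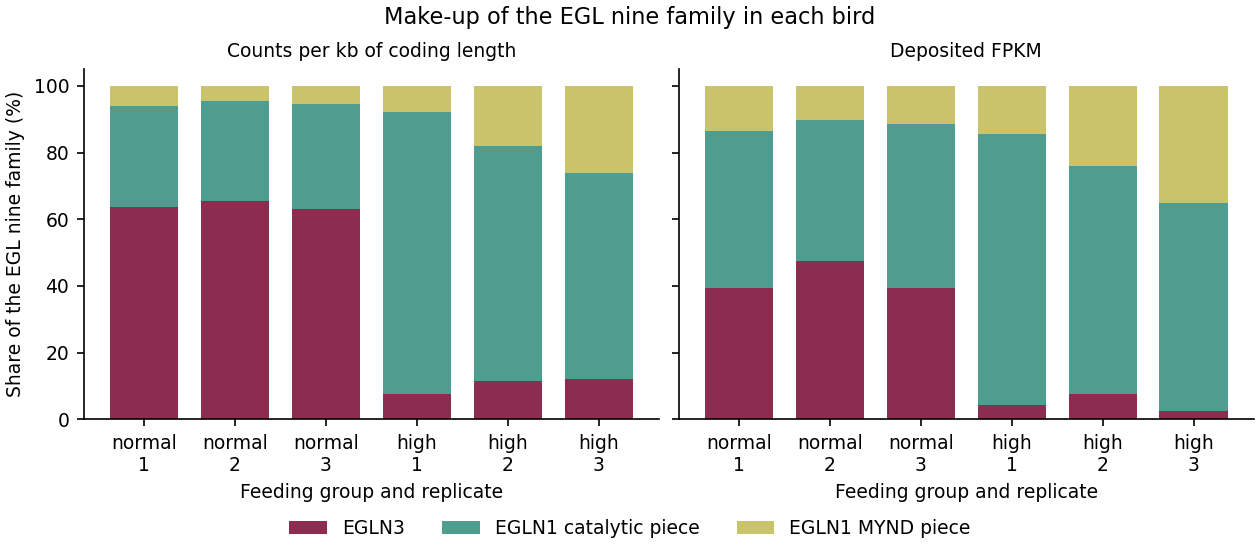
Share of each EGLN model in the family's total per bird, in percent, from counts per kilobase of coding length (left) and from deposited FPKM (right), with birds 1 to 3 of the normally fed (normal) and high-intake-fed (high) geese. By counts EGLN3 holds 63.2% to 65.4% in the normally fed group and 7.71% to 12% in the high-intake-fed birds, and the FPKM bars show a smaller EGLN3 share in both groups. The total adds both EGLN1 pieces as separate models, which may belong to 1 gene.

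The ratio of the MYND piece to the catalytic piece of EGLN1 holds no EGLN3 and could be tested. In counts per kilobase it was 0.197, 0.153 and 0.170 in normally fed birds 1, 2 and 3. In high-intake-fed birds 1, 2 and 3 it was 0.0944, 0.253 and 0.421. Bird 1 lay below the normally fed birds and birds 2 and 3 above, so the ratio did not separate the groups (exact two-sided permutation test p = 0.7, with 0.1 the smallest p that 3 birds against 3 allow). The normally fed ratios spanned 0.153 to 0.197 and the high-intake-fed ratios 0.0944 to 0.421, and the difference in spread was not tested.

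None of the tested models beside the EGLN genes on the scaffolds passed the threshold. On the left of EGLN3 the nearest model, without a description, lies 204229 bases away and held 110, 137 and 160 counts in the normally fed group and 156, 269 and 84 counts in the high-intake-fed birds 1, 2 and 3 (log2 fold change 0.36, adjusted p = 0.703 from edgeR). A sorting nexin model (SNX6) 3 places away, of endosome sorting, gave -0.11 (adjusted p = 0.863). On the right of EGLN3 the nearest model, 29572 bases away, holds a predicted disordered stretch alone and had between 2 and 9 counts in any bird, too few to be tested. Around EGLN1, the exocyst component EXOC8 gave a log2 fold change of -0.16 (adjusted p = 0.792), DISC1, of centrosome and neuronal biology, -0.02 (adjusted p = 0.975), and the model of translin and translin-associated protein X 0.40 (adjusted p = 0.368).

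The partners of the EGLN enzymes in the HIF pathway were looked at next. Of the 18 symbols of HIF subunits and their control, 14 matched a model, 8 of them by their domain and their neighbours in the RefSeq gene order, and all 14 were tested. EPAS1 fell (7.14% of the list) and the other 13 did not pass the threshold, against a background of 0.829% of models that fell. The median log2 fold change of the 14 was 0.08, against 0.04 over all tested models. The CPM ranges were apart in 2 that were lower (14.3%, beside 13.3% of all tested models) and in 0 that were higher (beside 11.1%). At an unadjusted p under 0.05 edgeR placed 9.71% of all tested models lower and 8.67% higher, and of the list 2 lower (14.3%) and 0 higher. At an adjusted p under 0.05, DESeq2, edgeR's exact test and limma each called 1 of the list lower (7.14%) and 0 higher. Over all tested models, DESeq2 called 4.21% lower and 3.45% higher, the exact test 3.3% and 2.86%, and limma 0.991% and 0.643%.

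EPAS1, the alpha subunit HIF2A, known in mammals for its place in liver lipid and iron metabolism, was the HIF subunit that fell. Its model was identified by its domain and its neighbours in the RefSeq gene order, which is less certain than a description. It held 17194, 32932 and 28712 counts in normally fed birds 1, 2 and 3 and 3769, 3660 and 4677 counts in high-intake-fed birds 1, 2 and 3. In CPM the means were 1646 ± 439 and 260 ± 26.1 (SD of 3 birds each), a 6.34-fold ratio. All 3 high-intake-fed birds lay below all normally fed ones, and normally fed bird 1 was the lowest of its group. The edgeR log2 fold change was -2.66 (standard error 0.32, adjusted p = 0.0131). Without normally fed bird 2 the adjusted p was 0.0677 and without normally fed bird 3 it was 0.0803, and the log2 fold change stayed between -2.87 and -2.50 whichever bird was left out.

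HIF1A, the other alpha subunit that was matched, did not separate the groups. It held 1104, 1345 and 1055 counts in normally fed birds 1, 2 and 3 and 1521, 1376 and 986 counts in high-intake-fed birds 1, 2 and 3. In CPM the means were 73.6 ± 5.74 and 84.3 ± 23.0 (SD of 3 birds each), with a log2 fold change of 0.20 and an adjusted p = 0.730 from edgeR. High-intake-fed birds 1 and 2 were above all normally fed birds and bird 3 below them all. The ARNT model, the beta subunit that pairs with both, gave 53.1 ± 4.26 and 59.3 ± 15.3 CPM (SD of 3 birds each; log2 fold change 0.16, adjusted p = 0.776), and ARNT2 gave 0.09 (adjusted p = 0.928).

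In the VHL ligase that reads the mark the EGLN enzymes make, no subunit passed the threshold. VHL itself held 7.57, 10.1 and 10.1 CPM in the normally fed group and 11.5, 6.86 and 12.1 CPM in the high-intake-fed birds 1, 2 and 3, with overlapping groups (log2 fold change 0.13, adjusted p = 0.857). The scaffold cullin CUL2 was at 181 ± 20.3 CPM in the normally fed group and 117 ± 22.7 CPM in the high-intake-fed geese (SD of 3 birds each). Its groups did not overlap, and it did not pass (log2 fold change -0.63, adjusted p = 0.215). The adaptors ELOB and ELOC gave 0.29 (adjusted p = 0.703) and 0.22 (adjusted p = 0.682), and the RING subunit RBX1 gave 0.73 (adjusted p = 0.356), with high-intake-fed birds 1 and 2 at 11.96 and 10.98 CPM and all other birds between 4.44 and 5.71 CPM.

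For the proteins that act beside the EGLN enzymes the groups overlapped, and none passed the threshold. HIF1AN, the asparagine hydroxylase that blocks the coactivator contact of HIF, gave 15.4 ± 2.09 and 16.1 ± 1.96 CPM (SD of 3 birds each; log2 fold change 0.06, adjusted p = 0.911). SIAH2, a ubiquitin ligase that in mammals degrades EGLN3, gave 7.91 ± 0.584 and 7.12 ± 0.888 CPM (SD of 3 birds each; log2 fold change -0.15, adjusted p = 0.790). LIMD1, a scaffold that brings EGLN1 to VHL in human cells, gave -0.01 (adjusted p = 0.987). The coactivators EP300 and CREBBP gave -0.02 (adjusted p = 0.968) and -0.06 (adjusted p = 0.909).

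**Figure D3:**
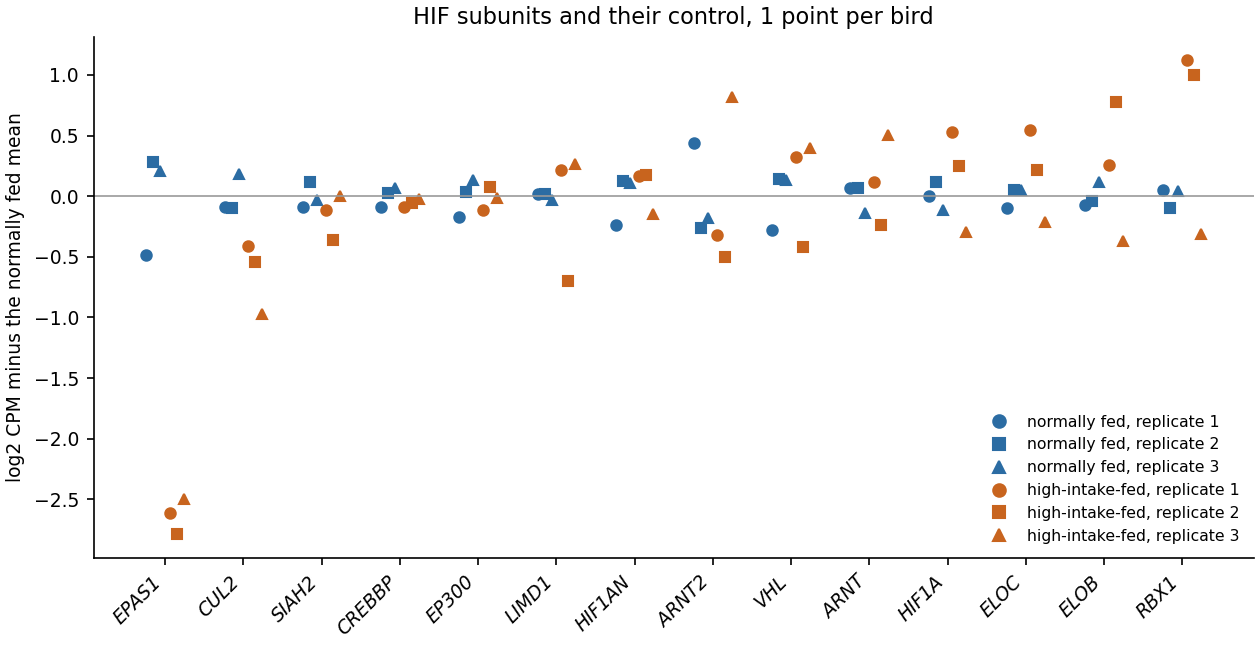
HIF subunits and proteins that control them, in order of the edgeR log2 fold change, with 1 point per bird for the log2 CPM minus the mean of the normally fed birds (blue, normally fed and orange, high-intake-fed). EPAS1 stands alone with all 3 high-intake-fed birds more than 2 log2 units below 0, and for 12 of the other 13 the groups overlap, CUL2 being the exception. The 2 with groups apart are 14.3% of the list, beside 13.3% of all tested models with the high-intake-fed birds below.

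Known HIF target genes were read from a list of 59 symbols, of which 42 matched a model and 41 were tested. P4HA1 fell (2.44% of the list, beside 0.829% of all tested models) and no other target passed the threshold. The median log2 fold change of the 41 was 0.03, against 0.04 over all tested models, and 22 were above 0, beside 6823 of all 12914 tested models. The CPM ranges of the groups did not overlap for 7 targets that were lower and 3 that were higher, which is 17.1% and 7.32% of the list beside the 13.3% and 11.1% of all tested models. At an unadjusted p under 0.05, 5 were lower (12.2%, beside 9.71% of all tested models) and 4 higher (9.76%, beside 8.67%), which is close to the background. DESeq2 called 4 lower (9.76%, beside 4.21%) and 2 higher (4.88%, beside 3.45%) at its adjusted p. The exact test of edgeR called 2 lower (4.88%, beside 3.3%) and 2 higher (4.88%, beside 2.86%). With limma 1 was lower (2.44%, beside 0.991%) and 0 were higher.

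P4HA1, a catalytic subunit of the collagen prolyl 4-hydroxylase, belongs to the same class of oxygenases as the EGLN enzymes and is a HIF target in mammals. Its model, too, was identified by domain and gene order. It held 3028, 1704 and 2277 counts in normally fed birds 1, 2 and 3 and 240, 368 and 678 counts in high-intake-fed birds 1, 2 and 3. In CPM the means were 149.5 ± 50.3 and 27.1 ± 12.7 (SD of 3 birds each), a 5.52-fold ratio, and the groups did not overlap. The edgeR log2 fold change was -2.46 (standard error 0.40, adjusted p = 0.0320). The adjusted p missed the threshold when any of 5 birds was left out, at 0.103, 0.0638 and 0.137 without normally fed birds 1, 2 and 3 and at 0.0772 and 0.070 without high-intake-fed birds 1 and 2.

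The targets next to P4HA1 by their p did not pass with edgeR's quasi-likelihood test. At an adjusted p under 0.05, DESeq2 and edgeR's exact test both called TF lower and BHLHE40 and PGK1 higher. TF, transferrin, gave 25568 ± 2642 CPM in the normally fed group and 8027 ± 3277 CPM in the high-intake-fed geese (SD of 3 birds each; log2 fold change -1.67, adjusted p = 0.110). BHLHE40, a repressor of transcription, gave 11.2 ± 5.06 and 49.2 ± 34.9 CPM (SD of 3 birds each; log2 fold change 2.13, adjusted p = 0.127), with high-intake-fed bird 1 inside the normally fed range. PGK1, of glycolysis, gave 276 ± 30.01 and 766 ± 454 CPM (SD of 3 birds each; log2 fold change 1.47, adjusted p = 0.129), with high-intake-fed bird 2 the highest at 1284 CPM. VEGFA, the growth factor of blood vessels and the textbook HIF target, held 565, 697 and 581 counts in the normally fed group and 434, 380 and 838 counts in the high-intake-fed birds 1, 2 and 3, on both sides of the normally fed birds (log2 fold change -0.14, adjusted p = 0.844).

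The other iron and 2-oxoglutarate oxygenases share the cosubstrates of the EGLN enzymes, and of 57 symbols 37 matched a model and 36 were tested. P4HA1 was the 1 that fell (2.78%, beside 0.829% of all tested models) and 0 rose (beside 0.643%). The median log2 fold change was -0.07 with 14 of 36 above 0, beside 6823 of all 12914 tested models. At an unadjusted p under 0.05 edgeR had 2 lower and 1 higher. These are 5.56% and 2.78% of the 36, below the 9.71% and 8.67% of all tested models. DESeq2, edgeR's exact test and limma called 1 lower (2.78%, beside 4.21%, 3.3% and 0.991% of all tested models) and 0 higher at an adjusted p under 0.05. JMJD6, a lysine hydroxylase, was at 20.3 ± 2.66 and 40.4 ± 16.2 CPM (SD of 3 birds each; log2 fold change 0.99, adjusted p = 0.140). TET2, which oxidises methylcytosine, was at 35.9 ± 2.04 and 21.4 ± 7.14 CPM (SD of 3 birds each; log2 fold change -0.75, adjusted p = 0.179). The groups did not overlap for either of them. PLOD2, a collagen lysine hydroxylase, gave -0.39 (adjusted p = 0.298), and its groups did not overlap either. Over the list the CPM ranges were apart in 5 that were lower (13.9%, beside 13.3% of all tested models). They were apart in 1 that was higher (2.78%, beside 11.1%). Without high-intake-fed bird 3, TET2 passed the threshold (log2 fold change -1.05, adjusted p = 0.0366).

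Among proteins reported to bind EGLN enzymes or to be hydroxylated by them, mostly in mammalian cells, 17 of 31 symbols matched and 16 were tested. None passed the adjusted p of edgeR (0 higher and 0 lower). Of the log2 fold changes 13 of 16 were above 0, beside 6823 of all 12914 tested models. The median was 0.65, against 0.04 over all tested models. At an unadjusted p under 0.05 there were 7 higher (43.75%, beside 8.67% of all tested models) and 0 lower. At an adjusted p limma called 0, edgeR's exact test 1 (6.25%, beside 2.86%) and DESeq2 2 (12.5%, beside 3.45%), all higher. The CPM ranges were apart in 6 of the 16, all with the high-intake-fed birds above, which is 37.5% beside the 11.1% of all tested models. The list matched 8 subunits of the chaperonin TRiC, which belong to 1 complex and make up 8 of the 16 tested. Their log2 fold changes lay between 0.52 (CCT7) and 1.18 (TCP1), and CCT2, CCT3, CCT6A and TCP1 were among the 7. The other members of the 7 were ATF4, HSP90AA1 and NDRG3. FOXO3, TELO2, PKM, HSP90AB1 and SIAH2 gave 0.14, 0.01, -0.09, -0.10 and -0.15.

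ATF4, a transcription factor of the stress response that EGLN3 binds in human cells, held 2145, 3474 and 3241 counts in the normally fed group and 7039, 4997 and 5367 counts in the high-intake-fed birds 1, 2 and 3. The groups did not overlap, and it did not pass (185.5 ± 37.3 and 378 ± 96.9 CPM, SD of 3 birds each; log2 fold change 1.03, adjusted p = 0.125). HSP90AA1, a chaperone, held 20631, 33164 and 34966 counts in the normally fed group and 77801, 160583 and 40647 counts in the high-intake-fed birds 1, 2 and 3 (log2 fold change 1.69, adjusted p = 0.155). CCT3, a subunit of TRiC, gave 87.4 ± 7.82 and 140 ± 32.3 CPM (SD of 3 birds each; log2 fold change 0.68, adjusted p = 0.188). NDRG3, a hydroxylation substrate of EGLN1 in human cells, gave 18.7 ± 1.86 and 29.2 ± 6.54 CPM (SD of 3 birds each; log2 fold change 0.64, adjusted p = 0.189). High-intake-fed bird 1 was the highest bird for ATF4 and NDRG3, and bird 2 for HSP90AA1 and CCT3.

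In the metabolism of the cosubstrates and inhibitors of EGLN enzymes (2-oxoglutarate, succinate, fumarate, ascorbate and iron), 32 of 40 symbols matched and all 32 were tested. RGN fell (3.125%, beside 0.829% of all tested models) and 0 rose (beside 0.643%). The median log2 fold change was 0.21, with 20 above 0, beside 6823 of all 12914 tested models. At an unadjusted p under 0.05 edgeR had 4 lower (12.5%, beside 9.71% of all tested models) and 5 higher (15.6%, beside 8.67%). At an adjusted p limma called 1 lower (3.125%, beside 0.991%) and 0 higher, and DESeq2 and edgeR's exact test each called 2 lower and 2 higher. These 2 are 6.25% of the list, beside 4.21% lower and 3.45% higher over all tested models with DESeq2 and 3.3% and 2.86% with the exact test. The CPM ranges were apart in 6 that were lower (18.75%, beside 13.3%) and 5 that were higher (15.6%, beside 11.1%).

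RGN, regucalcin, which in mammals that make ascorbate is the lactonase of that pathway, held 3858, 4451 and 5241 counts in the normally fed group and 612, 618 and 892 counts in the high-intake-fed birds 1, 2 and 3. The groups did not overlap, at 286 ± 45.2 and 45.3 ± 7.89 CPM (SD of 3 birds each), a 6.30-fold ratio. The edgeR log2 fold change was -2.66 (standard error 0.25, adjusted p = 0.00553), and RGN passed the threshold whichever bird was left out. GPT2, which turns alanine and 2-oxoglutarate into pyruvate and glutamate in mitochondria, held 2703, 2219 and 4084 counts in the normally fed group and 25977, 14931 and 6106 counts in the high-intake-fed birds 1, 2 and 3. It was higher in all 3 high-intake-fed birds and did not pass (log2 fold change 2.45, adjusted p = 0.0859), and without high-intake-fed bird 3 it passed (adjusted p = 0.0260). Its cytosolic partner GPT gave 1.497 (adjusted p = 0.0953), with 20.5 ± 1.88 and 57.9 ± 31.5 CPM (SD of 3 birds each).

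Over the 5 lists together, 132 of 192 symbols matched and 129 models were tested, each counted once. EPAS1, P4HA1 and RGN fell, which is 2.33% of the 129 beside 0.829% of all tested models, and 0 rose beside 0.643%. The CPM ranges were apart in 16 that were lower (12.4%, beside 13.3% of all tested models) and 15 that were higher (11.6%, beside 11.1%), about the background, and the median log2 fold change was 0.09. Without high-intake-fed bird 3 the lists held 9 that rose (CCT2, CCT5, GOT1, GPT2, HSP90AA1, PGK1, SLC11A2, SUCLA2 and TCP1) and 4 that fell (the same 3 and TET2). These are 6.98% and 3.10% of the 129, and without that bird the calls over all tested models rose as well, to 2.38% higher and 1.52% lower. Without normally fed bird 2 or 3, RGN alone remained. The lists were chosen with earlier results of these birds known.

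**Figure D4:**
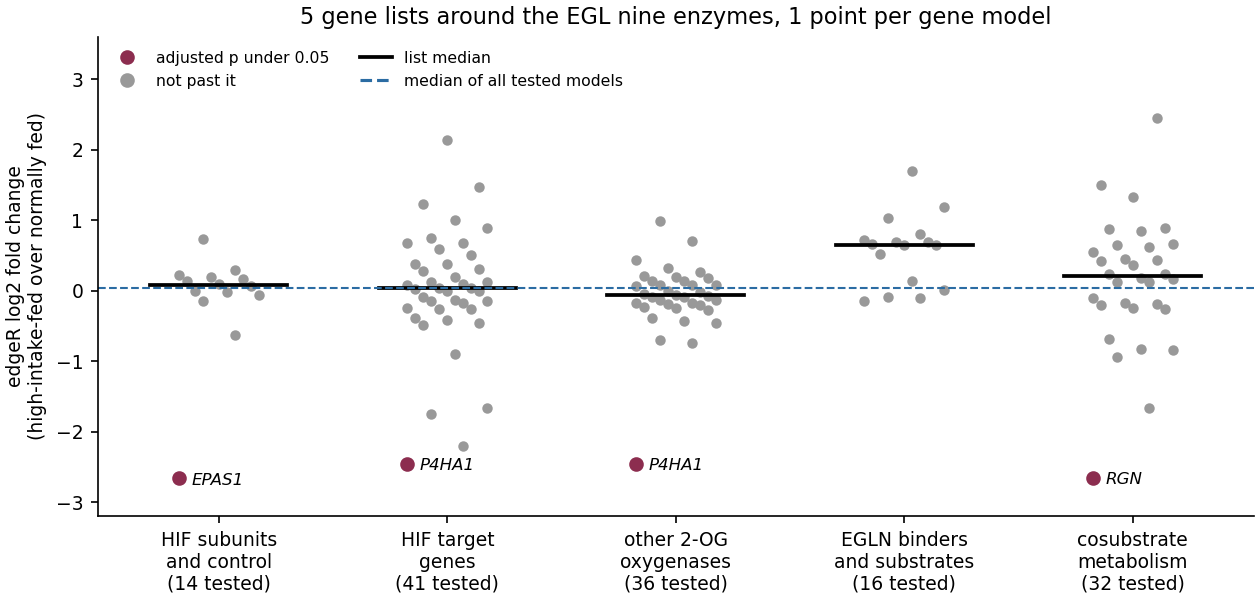
edgeR log2 fold changes (high-intake-fed over normally fed) of the tested models in the 5 lists, 1 point per model, with models at an adjusted p under 0.05 in dark red and named, a black line at each list's median and a dashed line at the median of all tested models (0.04). EPAS1, P4HA1 (in 2 lists) and RGN are the models past the threshold. The list of EGLN binders and substrates has the highest median, 0.65, and holds the TRiC subunits, which belong to 1 complex.

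The models whose profile over the 6 birds was most like that of EGLN3 were sought among 6220 tested models with a name in capitals, by the root mean square difference of log2 CPM from the normally fed mean. They share with EGLN3 the contrast it was selected on, so their falls are given as a description. The nearest was a plexin model, of a family of semaphorin receptors, with a difference of 0.22 log2 units and 176, 223 and 191 counts in the normally fed group and 6, 14 and 15 counts in the high-intake-fed birds 1, 2 and 3. ROBO2, a receptor of axon and vessel guidance, came next (0.30), with 772, 938 and 892 against 45, 72 and 78 counts. By CPM both had high-intake-fed bird 1 as their lowest bird, as EGLN3 did, and so did the exocyst and serpin models given next. The values of all 6 birds entered the ranking, so this shared order is a description as well.

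The next 4 were further away. A short plexin model on the same scaffold as the first (0.52) held 16, 28 and 31 counts in the normally fed group and 0, 0 and 1 counts in the high-intake-fed birds 1, 2 and 3, so that its distance rests on the prior count of 2. The identifiers of these plexin models are consecutive, and whether both belong to 1 gene was not tested. A model described as exocyst complex component 3 (0.53) held 1391, 2025 and 1802 against 31, 140 and 159 counts. Its name rests on that description alone, and which gene of the family it is was not tested. LPIN2, a phosphatidate phosphatase (0.66), held 27830, 31257 and 69769 against 3864, 3278 and 2844 counts, and in the high-intake-fed group its lowest bird was bird 3. A serpin, of the serine protease inhibitors (0.74), held 31657, 35473 and 50514 against 2960, 7075 and 3835 counts. With Pearson's r over the 6 birds in place of the difference, 2 of these 6 were again among the 6 most alike.

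**Figure D5:**
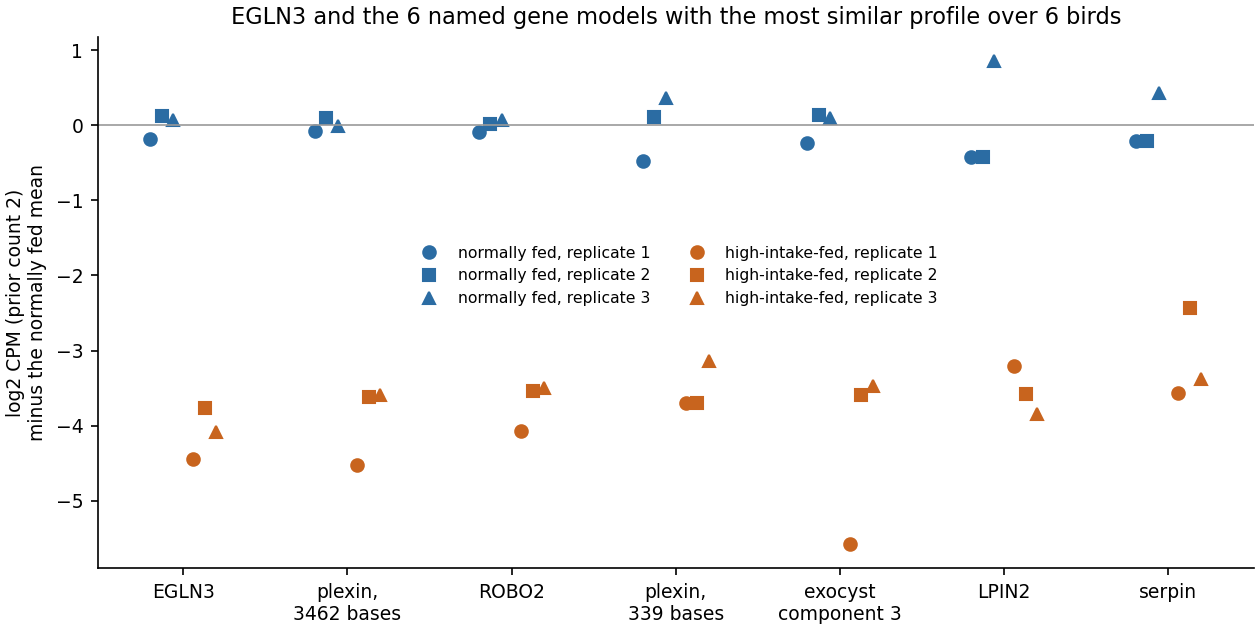
EGLN3 and the 6 named models with the most similar profile, with 1 point per bird for the log2 CPM (prior count 2) minus the normally fed mean, blue for normally fed and orange for high-intake-fed geese. The first plexin model and ROBO2 follow EGLN3 most closely (root mean square differences of 0.22 and 0.30 log2 units), and the exocyst model lies lower than EGLN3 in high-intake-fed bird 1.

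Markers of hepatocytes and of other liver cells were summed per bird, since the libraries are of whole liver. Of 97 marker symbols in 11 lists, 35 matched a model and 33 were tested. CYP7A1, of bile acid synthesis, was the 1 called by edgeR (lower, beside 0.829% of all tested models). At an unadjusted p under 0.05, 10 were lower (30.3%, beside 9.71% of all tested models) and 2 higher (6.06%, beside 8.67%). At an adjusted p under 0.05, DESeq2 called 9 of the 33 lower and 1 higher, beside 4.21% and 3.45% of all tested models. The exact test of edgeR called 5 lower and 1 higher, beside 3.3% and 2.86%, and limma 1 lower and 0 higher, beside 0.991% and 0.643%. Hepatocyte markers (7 of 12 matched, albumin the largest) summed to 241992 to 330204 CPM in the normally fed group and 111324 to 258192 CPM in the high-intake-fed geese. Within this list ALB and APOB, the most abundant, gave log2 fold changes of -0.44 and -0.09. FGA, FGB, FGG, TF and CYP7A1 gave -1.41, -2.62, -1.41, -1.67 and -6.25. Each was lower in every high-intake-fed bird than in any normally fed one, as were 13.3% of all tested models. Macrophage markers (5 of 10) summed to 726 to 858 against 367 to 678 CPM, endothelial markers (6 of 11) to 249 to 390 against 208 to 229 CPM, and stellate and fibroblast markers (4 of 11) to 232 to 299 against 115 to 179 CPM. T and B cell markers (2 of 9) summed to 35.8 to 44.1 against 7.30 to 25.1 CPM, and erythrocyte and thrombocyte markers (2 of 11) to 109 to 206 against 277 to 489 CPM. The ranges of these 5 lists of non-hepatocyte cells did not overlap between the groups. Of single tested models, 13.3% had ranges apart with the high-intake-fed birds below and 11.1% with them above. Abundant single members carried several of the sums. In the macrophage list CD74 gave a log2 fold change of -0.99, CSF1R -0.13 and the complement genes C1QA, C1QB and C1QC -0.08, 0.03 and -0.16. In the stellate and fibroblast list DCN, LRAT and TAGLN gave -0.88, -0.81 and -0.50, and LUM 0.93. In the endothelial list VWF, LYVE1 and EMCN gave -1.09, -0.90 and -0.54, and PECAM1, KDR and FLT1 -0.11, -0.15 and 0.08. CD8A and JCHAIN of the T and B cell list gave -0.77 and -1.44. HBE and RHAG of the erythrocyte and thrombocyte list gave 1.25 and 0.94. None of these non-hepatocyte members passed the threshold.

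Genes taken as mammalian markers of the central zone of the lobule (2 of 7, GLUL and OAT) summed to 936 to 1264 against 460 to 907 CPM. Those of the portal zone (2 of 7, ASS1 and PCK1) summed to 58.1 to 101 against 10.4 to 37.3 CPM. Both sums were lower in every high-intake-fed bird. Whether these genes mark the same zones in goose liver was not tested. GLUL gave a log2 fold change of -1.55 (adjusted p = 0.13) and OAT 0.25 (adjusted p = 0.787). The portal sum rested on PCK1 (log2 fold change -2.55, adjusted p = 0.275), while ASS1 gave -0.33 (adjusted p = 0.659) and its groups overlapped. Biliary markers (3 of 7) overlapped, at 11.99 to 18.9 and 6.33 to 20.6 CPM. The adipocyte marker ADIPOQ (1 of 5) held 3 to 19 counts per bird and the muscle marker TNNT3 (1 of 7) 0 to 3, and no matched marker was at 0 in all 6 birds. The part of these markers in the EGLN3 and EPAS1 values was not tested.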

How the data were processed

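RNA of 6 goose livers was measured (3 normally fed, 3 high-intake-fed, grouped by their labels). Per the study's methods, ribosomal RNA was removed with probes, ribosomal reads were discarded with Bowtie2 and the others aligned with HISAT2; the processing notes also list FastQC and BWA. Per the labels, the U-marked second cDNA strand was degraded with USER enzyme before amplification. The authors deposited raw counts and FPKM for 21009 gene models. The methods name HTseq beside the Gene Ontology step and StringTie for transcript assembly and in the circular RNA step, neither as the source of the deposited counts. For the genome build, annotation version and strand setting: not given in the sources used here. All coding lengths were multiples of 3, so they hold no untranslated regions. Between 2154 and 2956 models with counts per library were listed at FPKM 0, none of them an EGLN model, and main results rest on the counts.

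Counts were tested with edgeR 4.0.16 (TMM, filterByExpr at min.count 10 and min.total.count 15, quasi-likelihood test without covariates, Benjamini-Hochberg over 12914 models, calls at an adjusted p under 0.05). On simulated data for this comparison 77% of models changed by 2 log2 units and 99% of those changed by 4 were recovered, and 13 unchanged models were called. The changed models were drawn from those with higher mean counts, so these shares do not cover models with low counts. The labels do not say whether birds are siblings. The tests treat the birds as independent and set the group difference against the variation between these birds. A count of 1 was worth 0.0591 to 0.0695 CPM.

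The members and lists were chosen with earlier results of these data known. The table holds no symbols: models were matched by description or enzyme number, and 68 by their domain and by neighbours within 8 genes of the symbol in the RefSeq order of the Taihu goose, which is less certain (EPAS1 and P4HA1 included) and was decided after the files were seen. Where several models matched, the one with the higher counts was taken. Named genes are the EGLN models, all matched HIF subunits and controls, the 4 smallest p of each other list, the 6 models most like EGLN3, the scaffold neighbours, VEGFA and ROBO2. Alternatives were RLE scaling, library size alone, library sizes without the 20 most abundant models, DESeq2 1.42.0, the exact test of edgeR, limma 3.58.1 on log2(CPM + 1), a block for the replicate number, a stricter filter (10 counts in each library), none at all, and each bird left out. No sequences were used here.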

Additional observations from a re-analysis of the deposited data

How the results depend on the processing

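The fitted log2 fold change of EGLN3 lay between -4.33 and -3.98 with each bird left out, and was -3.72 with limma on log2(CPM + 1), whose added 1 shrinks low values. The EGLN1 catalytic piece lay between -0.40 and -0.07 and the MYND piece between -0.077 and 0.50 with each bird left out, and neither piece passed the threshold under any alternative run. Over all models, the number higher was 444 with DESeq2, 369 with edgeR's exact test, 168 without a filter and 10 to 312 with a bird left out, and the number lower was 542, 426, 167 and 20 to 199. In the 5 lists, 6 were higher with DESeq2, 5 with the exact test, 1 without a filter and 0 to 9 with a bird left out, and 6 were lower with DESeq2 and 1 to 4 with a bird left out. With DESeq2 the 6 are 4.65% of the 129 tested in each direction, beside 3.45% higher and 4.21% lower over all tested models. With the exact test 3.88% were higher, beside 2.86%, and 3.10% lower, beside 3.3%. Beside the 3 main calls, DESeq2 called ATF4, BHLHE40, GPT, GPT2, HSP90AA1 and PGK1 higher and the HIF targets CA12, NDRG1 and TF lower. The exact test called the same models except ATF4, CA12 and NDRG1. P4HA1 was also lost with library size alone (adjusted p = 0.0546) and without the 20 most abundant models (adjusted p = 0.0541, both edgeR). The mean EGLN3 share in high-intake-fed geese was 9.57% to 11.7% with a bird left out and 4.76% by FPKM, and the ratio of the EGLN1 pieces between the groups 1.00 to 1.94. Of the 6 models most like EGLN3, 2 were again among the 6 by Pearson's r.

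Same-numbered birds of the groups did not deviate together (correlations of -0.11, 0.02 and -0.15 for replicates 1, 2 and 3). Birds of different numbers gave -0.07 to 0.18. With 3 birds per group these values cannot exclude a pairing. With the replicate block 23 models were higher and 38 lower, 1 model of the lists was lower (RGN) and EPAS1 (adjusted p = 0.0680) and P4HA1 (adjusted p = 0.0787) missed the threshold. With that block EGLN3 gave -4.16, the catalytic piece -0.28, the MYND piece 0.06 and ARNT2 -0.0017.

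Models near 0 turned sign. LIMD1 gave 0.0043 with library size alone and 0.0069 without the 20 most abundant models. With a bird left out the log2 fold changes ranged from -0.025 to 0.54 for ELOB, from -6.3e-05 to 0.39 for HIF1A, from -0.048 to 0.32 for ARNT, from -0.011 to 0.35 for VHL, from -0.11 to 0.0079 for CREBBP, from -0.048 to 0.16 for HIF1AN, from -0.44 to 0.34 for ARNT2, from -0.10 to 0.083 for EP300, from -0.17 to 0.24 for LIMD1 and from -0.51 to 0.066 for VEGFA. The cause of these shifts was not tested. At 29 to 52 EGLN3 counts per high-intake-fed library, differences among those birds are of limited precision.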
